A study of Mus musculus with 64 samples.

Results

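Of the 55487 genes counted in the bone marrow-derived macrophage (BMM) libraries, 8 CXC chemokine genes, chosen by name, are described here: Cxcl1, Cxcl2, Cxcl3, Cxcl5, Cxcl9, Cxcl10, Cxcl11 and Cxcl16. Each had a count row and all 8 passed the filter on low counts. The study asked how ligands of the aryl hydrocarbon receptor (AhR) change gene expression in activated macrophages, and mRNA was sequenced from 64 libraries, 4 in each of 16 groups. The cells came from Ahr+/+ mice (female C57BL/6JRj) and from Ahr-/- mice back-crossed to them, 4 mice of each genotype aged 8 to 12 weeks, and were grown from marrow in medium conditioned by L929 fibroblasts. BMMs were kept for 6 h with 0.01% DMSO (the vehicle), with 1 µM benzo[a]pyrene (BaP, a combustion product) or with 10 µM indole-3-carbinol (I3C, a compound of cabbage plants). They were then activated for 3 h or 20 h with Salmonella enterica Serovar Enteritidis killed by heat (hk S.E., 10000000 per ml), while an unactivated DMSO group was kept at each time. The Ahr deletion is present in every cell of the Ahr-/- mice from the embryo on, so that the cells also differentiated without the receptor.

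CXC chemokines are small secreted proteins that guide leukocytes through receptors on their surface. Cxcl1, Cxcl2, Cxcl3 and Cxcl5 carry the ELR motif, bind CXCR2 and attract neutrophils, and their transcription in macrophages depends largely on NF-kB. Cxcl9, Cxcl10 and Cxcl11 bind CXCR3, attract T and NK cells and are induced by interferons. Cxcl16 is made as a transmembrane protein that binds CXCR6 and is released by the protease ADAM10. In C57BL/6 mice Cxcl11 carries a frameshift, and the annotation lists it as a polymorphic pseudogene, so its values are those of a transcript and not of a protein.

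The neutrophil-attracting and the interferon-induced genes lie in separate clusters on chromosome 5 of GRCm38. Cxcl5 (90759360 to 90761624), Cxcl3 (90786103 to 90789600), Cxcl1 (90891241 to 90893115) and Cxcl2 (90903871 to 90905938) are on the plus strand. Cxcl9 (92321347 to 92328079), Cxcl10 (92346638 to 92348889) and Cxcl11 (92359544 to 92365485) are on the minus strand, 1415 kb further on, and Cxcl16 is on chromosome 11 (70453983 to 70459984, minus strand). The bases upstream of 5 of these genes are shown because the classes moved apart in the comparisons of the genotypes, and because NF-kB, interferon-activated factors and AhR each bind known letters. Sequences are from RefSeq on GRCm38.p6, 5′ to 3′ on the strand of the gene. They end before the first base of the gene model, which leaves 4 bases to the RefSeq start in Cxcl1, 28 in Cxcl2 and 0 in the others. Capitals mark matches on either strand to the kappaB consensus, to the core of the interferon-stimulated response element (ISRE, GAAANNGAA) and to the core of the AhR response element (AHRE, GCGTG), while the gamma-activated site (GAS, TTCNNNGAA) was searched and not met.
Cxcl1 (chr5:90891065-90891240, plus strand): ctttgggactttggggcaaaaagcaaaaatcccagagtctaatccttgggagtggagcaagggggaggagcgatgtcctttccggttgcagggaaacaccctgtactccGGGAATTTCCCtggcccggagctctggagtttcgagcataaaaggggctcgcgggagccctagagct
Cxcl2 (chr5:90903719-90903870, plus strand): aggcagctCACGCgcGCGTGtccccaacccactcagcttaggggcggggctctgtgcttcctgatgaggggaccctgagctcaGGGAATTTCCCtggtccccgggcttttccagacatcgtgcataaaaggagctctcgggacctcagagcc
Cxcl3 (chr5:90785921-90786100, plus strand): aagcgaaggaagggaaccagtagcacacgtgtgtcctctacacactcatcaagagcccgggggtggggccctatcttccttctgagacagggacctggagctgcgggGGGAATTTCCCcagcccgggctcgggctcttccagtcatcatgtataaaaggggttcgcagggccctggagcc
Cxcl9 (chr5:92328080-92328329, minus strand): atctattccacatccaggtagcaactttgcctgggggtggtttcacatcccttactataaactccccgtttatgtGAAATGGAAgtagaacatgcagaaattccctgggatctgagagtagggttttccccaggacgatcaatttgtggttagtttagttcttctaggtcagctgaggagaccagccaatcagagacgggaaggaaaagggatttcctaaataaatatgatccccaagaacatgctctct
Cxcl10 (chr5:92348890-92349139, minus strand): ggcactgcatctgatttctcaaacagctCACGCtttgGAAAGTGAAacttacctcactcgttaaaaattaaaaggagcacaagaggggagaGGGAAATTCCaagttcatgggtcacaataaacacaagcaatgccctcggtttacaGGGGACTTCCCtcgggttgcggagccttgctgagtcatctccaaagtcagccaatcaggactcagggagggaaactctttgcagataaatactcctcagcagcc
Cxcl1, Cxcl2 and Cxcl3 carry the same kappaB stretch of 11 letters, which holds overlapping matches on both strands and begins at positions -71, -97 and -73, counted back from the RefSeq start and not from the end of the printed stretch. Cxcl10 holds 3 kappaB matches, of which the first begins at -159 and the others overlap from -104, and an ISRE core at -213. In Cxcl9 an ISRE core began at -175 and no match to the whole kappaB consensus of 10 letters was met in the 250 bases searched. Stretches that differ from the consensus in a single letter were not searched for. AHRE cores were met in Cxcl2 (at -172 and -165) and in Cxcl10 (at -222). Matches were searched in the 250 bases before the RefSeq start, also where less is printed. Over the same 250 bases of 32851 promoters, 7.25% hold a kappaB match, 7.13% an ISRE core, 7.02% a GAS match and 28.2% an AHRE core. A match is a description of letters, not a site shown to be bound.

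Libraries held between 12152496 and 50644601 counts on genes, apart from 1 unactivated Ahr+/+ library at 20 h (replicate 4) with 233047331. Levels are given as CPM, counts scaled to a common library size with TMM factors, and fold changes on the log2 scale from edgeR's quasi-likelihood test, called at an adjusted p below 0.01 over 14537 genes. Macrophage genes such as Lyz2, Adgre1 and Csf1r were abundant in every group, with a summed level of 8 markers between 18609 and 35732 CPM. In the DMSO groups with hk S.E., 7 lists of markers of other cells were low beside the macrophage markers. The summed level was at most 84.6 CPM for 8 neutrophil genes, 4.05 for 6 fibroblast genes, 1.60 for 7 T and NK cell genes, 2.11 for 4 B cell genes, 1.83 for 4 dendritic cell genes, 59.4 for 3 endothelial genes (nearly all of it Kdr) and 0.0449 for 3 epithelial genes. Of the 8 neutrophil genes, Ly6g, Elane and Mpo had means of at most 0.111 CPM in these groups. At 3 h most of the level of this list was Ngp, Ltf and Camp, as described below. Since the knockout leaves an Ahr transcript that is still counted, the genotype was checked on Ahrr, a target gene of AhR, which at 20 h of hk S.E. with DMSO was lower in Ahr-/- BMMs (log2 -2.91) (edgeR, adjusted p 2.28e-15). In RNA of whole cultures, fewer cells of a kind and less RNA per cell cannot be told apart.

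hk S.E. raised the members, 7 of them from low levels or from counts near 0, though Cxcl5 stayed scarce. Cxcl10 rose most in absolute terms. In unactivated Ahr+/+ BMMs at 3 h it was at 3.51, 5.24, 3.65 and 9.77 CPM, and with DMSO and hk S.E. at 9922, 11178, 9290 and 10196 CPM. Cxcl2, the most abundant of the neutrophil-attracting members, was at 3.85, 6.20, 4.98 and 6.40 CPM unactivated and at 1329, 1003, 1695 and 1168 CPM activated. In both genes the activated and unactivated libraries lay far apart. Cxcl16 differed from the other 7 in that it was already well expressed without activation, at 205, 220.4, 270.4 and 237 CPM, and reached 676, 683, 693 and 686 CPM.

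**Figure D1:**
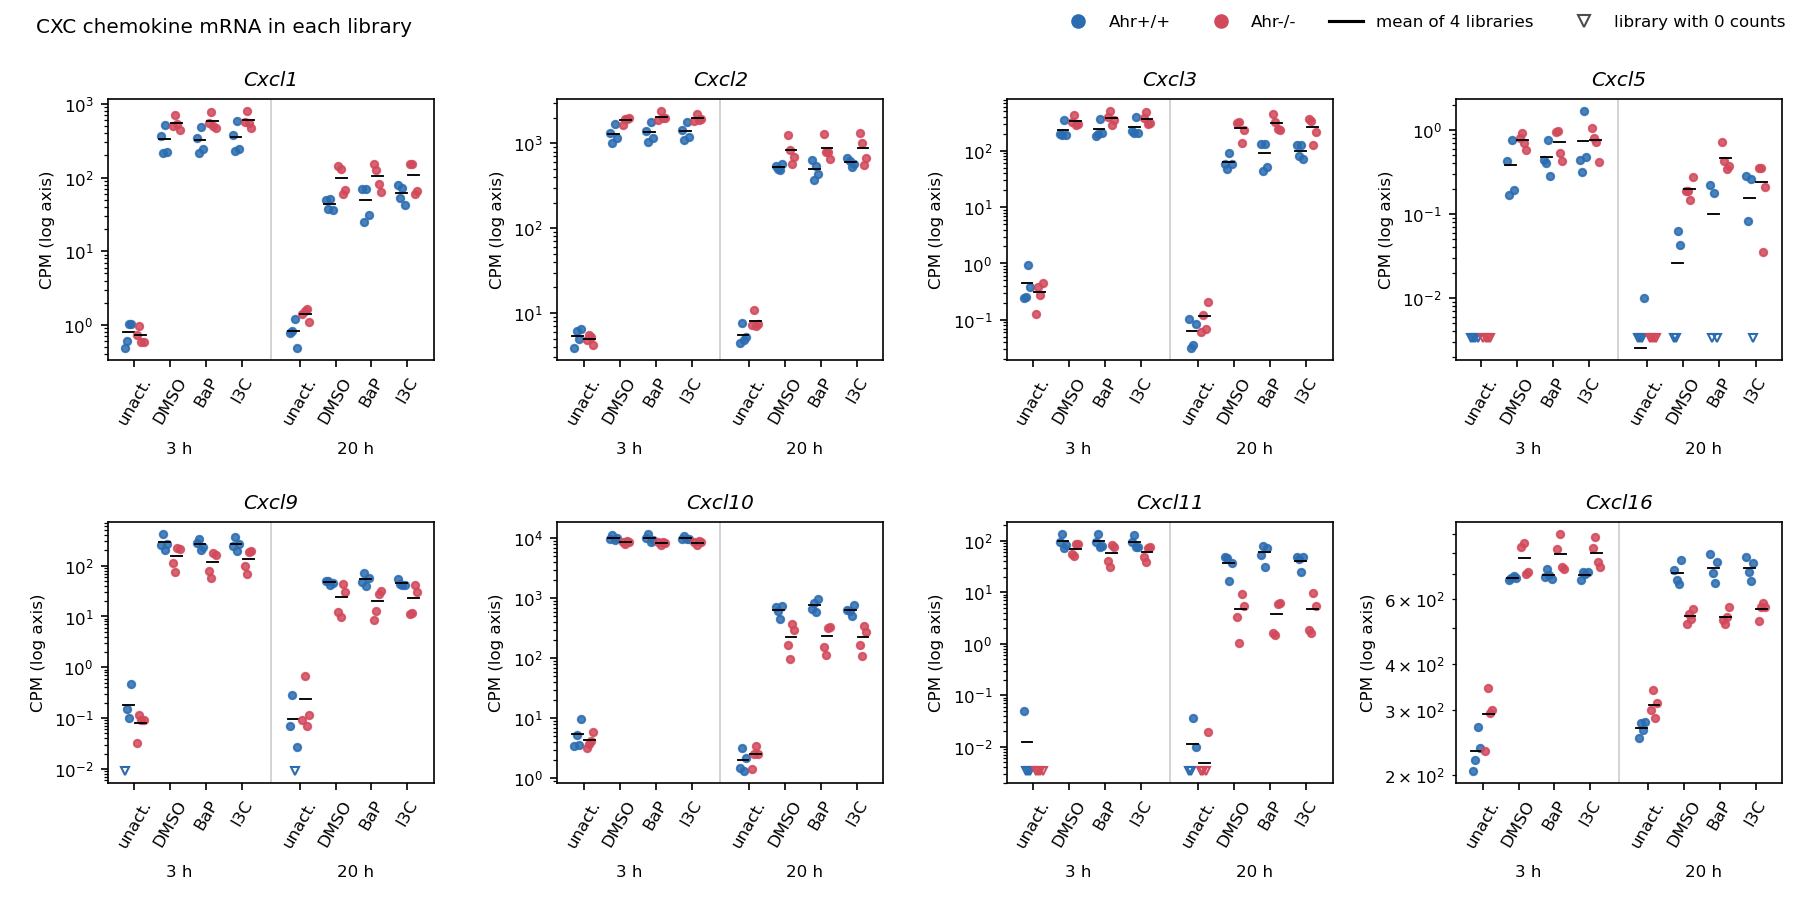
Level of each member in each library, in CPM on a log axis, by treatment (unact., DMSO without hk S.E.; the others with hk S.E.) and time; points are libraries, lines are means of 4 and open triangles are libraries with 0 counts. At 20 h the Ahr-/- libraries after DMSO lie above the Ahr+/+ ones for Cxcl1 and Cxcl3 and below them for Cxcl10, Cxcl11 and Cxcl16.

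In the edgeR fit, 8 of 8 members were higher with hk S.E. in Ahr+/+ BMMs at 3 h, where 24.2% of all genes tested were called higher, and 8 of 8 in Ahr-/- BMMs at 3 h, where 25.5% were. At 20 h it was 7 of 8 in Ahr+/+ (29.9% of all genes) and 8 of 8 in Ahr-/- (28.3%). At 3 h in Ahr+/+ BMMs the log2 fold change was 8.74 for Cxcl1, 7.91 for Cxcl2, 9.10 for Cxcl3, 10.63 for Cxcl9 and 10.84 for Cxcl10, against 1.55 ± 0.08 (SE) for Cxcl16. The median over the members was 8.92, and over all genes tested -0.10. Cxcl5 and Cxcl11 were counted 0 times or nearly so in unactivated libraries, and their fitted fold changes depend on the prior count. Against a floor of 3 counts over the group, Cxcl5 at 3 h was at least 13.1-fold higher in Ahr+/+ and at least 28.3-fold higher in Ahr-/- BMMs, and Cxcl11 was at least 2594-fold higher in Ahr-/- BMMs. In Ahr+/+ BMMs at 3 h, Cxcl11 had 1 count in all unactivated libraries together and 6085 in the activated ones, a ratio of 10016 (exact 95% counting interval 1797 to 395660). At 20 h in Ahr-/- BMMs its ratio was 703 (126 to 27801). The member not called was Cxcl5 in Ahr+/+ BMMs at 20 h, with 3 counts in the unactivated and 4 in the activated libraries together (ratio 4.02, interval 0.680 to 27.4, adjusted p 0.224), too few to show a difference. Markers of other cells rose in the same comparison: 3 of 4 neutrophil markers tested were called higher at 3 h in each genotype, and their list went from 11.4 to 58.0 CPM in Ahr+/+ and from 8.98 to 41.5 CPM in Ahr-/- BMMs, most of it Ngp, Ltf and Camp. The endothelial list, mostly Kdr, went from 5.60 to 29.4 and from 3.83 to 17.6 CPM. Their part in the chemokine results was not tested.

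**Figure D2:**
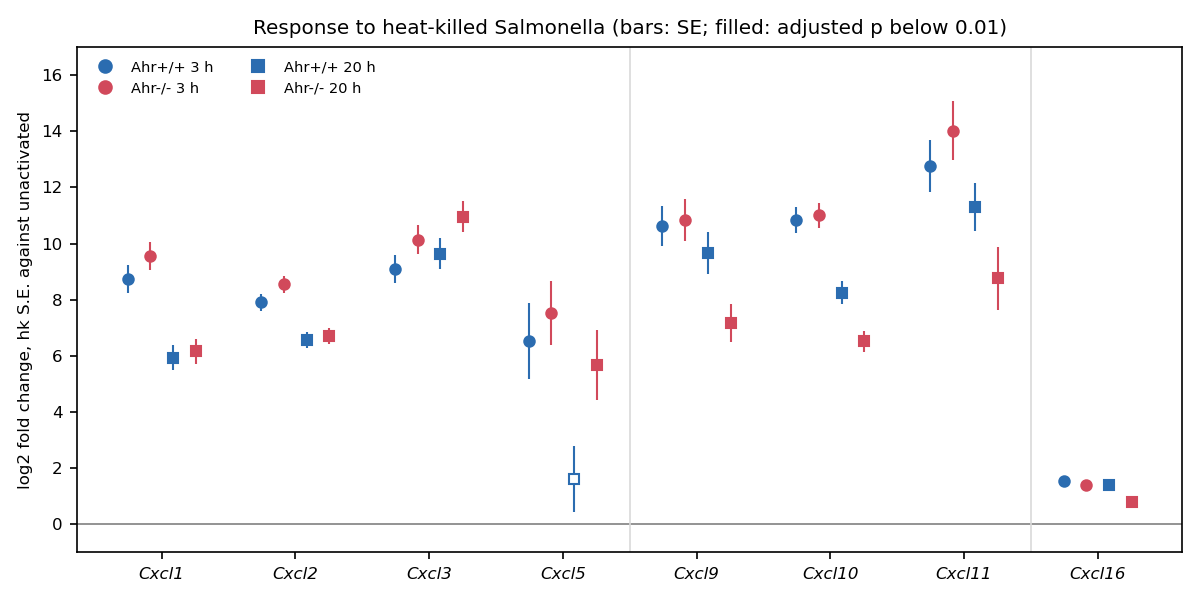
Fitted log2 fold change of each member for hk S.E. against unactivated BMMs, by genotype and time; bars are SE, filled symbols passed an adjusted p below 0.01. Values for Cxcl5 and Cxcl11 rest on unactivated groups with almost no counts; the response of Cxcl16, between 0.80 and 1.55, is small beside the other members.

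Per kb of exon, the order of the members differed between the times. At 3 h in Ahr+/+ BMMs after DMSO, Cxcl10 led with a mean of 4505 CPM per kb, followed by Cxcl2 (628), Cxcl16 (227), Cxcl1 (176), Cxcl9 (95.04), Cxcl3 (66.6), Cxcl11 (25.5) and Cxcl5 (0.208). Cxcl10 made up 78.7% of the per-kb total of the 8 members on average, and its lowest library lay above the highest of Cxcl2. Cxcl16, Cxcl1, Cxcl9 and Cxcl3 overlapped their neighbours in this order. At 20 h Cxcl10 (282), Cxcl2 (252) and Cxcl16 (234) overlapped one another, and the share of Cxcl10 was 33.5%. In Ahr-/- BMMs at 20 h the order was another: Cxcl2 led with 405 CPM per kb, ahead of Cxcl16 (179), Cxcl10 (102), Cxcl3 (72.3), Cxcl1 (53.4), Cxcl9 (7.98), Cxcl11 (1.26) and Cxcl5 (0.107). There Cxcl2 made up 48.3% and Cxcl10 13.2% of the total, and every Cxcl2 library lay above every Cxcl10 library. Cxcl10 (42.6 to 162.9), Cxcl3 (39.5 to 93.8) and Cxcl1 (31.4 to 77.5) overlapped one another.

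Between 3 h and 20 h of hk S.E. after DMSO, most members fell, and Cxcl10 fell furthest among the well-counted ones. In Ahr+/+ BMMs its libraries went from the 9290 to 11178 CPM given above to 729.6, 607, 451 and 755 CPM, a log2 change of -4.00 ± 0.33 (SE). Cxcl1 went from 362, 214, 517 and 224 CPM to 49.7, 37.7, 51.7 and 35.9 CPM (-2.91), and Cxcl2 to 538, 496, 483 and 569.8 CPM (-1.31 ± 0.22). The libraries of the 2 times did not overlap for these genes. Of the 8 members, 7 were called lower in Ahr+/+ BMMs, where 26.4% of all genes were, and 7 in Ahr-/- BMMs, where 24.3% were. In Ahr-/- BMMs the 4 DMSO libraries at 3 h belong to 1 series of library identifiers and the 4 at 20 h to another, so that time and series cannot be told apart directly. With the series as a covariate 4 of the 8 members were called there, Cxcl1 (-2.53), Cxcl2 (-1.29), Cxcl10 (-5.47) and Cxcl16 (-0.34). In Ahr+/+ BMMs 2 of the 4 DMSO libraries at 3 h share the series of the 4 at 20 h, and the other 2 do not. With the covariate Cxcl11 lost its call in Ahr+/+ BMMs (adjusted p 0.01275, edgeR). Summed neutrophil markers moved in parallel, from 58.0 CPM on average at 3 h to 5.18 at 20 h in Ahr+/+ BMMs and from 41.5 to 5.70 in Ahr-/-. Their part in the change was not tested.

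The member that was not lower differed between the genotypes. In Ahr+/+ BMMs it was Cxcl16, with 684.7 ± 7.01 CPM (SD, n = 4) at 3 h and 706 ± 47.3 at 20 h (log2 0.04, adjusted p 0.648, edgeR). In Ahr-/- BMMs Cxcl16 fell from 774 ± 79.2 to 539 ± 22.1 CPM (-0.52 ± 0.08, adjusted p 2.22e-07), and the member not called was Cxcl3, with 326, 429, 290.3 and 297 CPM at 3 h and 314, 328, 138 and 232 CPM at 20 h (-0.41 ± 0.31, adjusted p 0.244). In Ahr+/+ BMMs Cxcl3 fell by 1.86 on the log2 scale. The decline of Cxcl10 in Ahr-/- BMMs was -5.24 ± 0.35 and that of Cxcl11 -3.84 ± 0.46, beside -1.39 ± 0.40 for Cxcl11 in Ahr+/+. With the series as a covariate the value for Cxcl11 in Ahr-/- BMMs was -1.69 (adjusted p 0.906), for Cxcl9 -3.67 (0.0595), for Cxcl5 -1.09 (0.831) and for Cxcl3 0.51 (0.647), and none of these 4 was called. The term for the 20 h series then rests on unactivated libraries only. In unactivated Ahr+/+ BMMs at 3 h the means were 0.0032 (Cxcl11), 0.0600 (Cxcl9), 0 (Cxcl5) and 0.129 (Cxcl3) CPM per kb. For these genes the covariate fit therefore cannot separate time from series. Some calls for time in the plain fit rested on single libraries: without Ahr+/+ DMSO 20 h replicate 3, Cxcl11 in Ahr+/+ BMMs changed by -1.15 (adjusted p 0.0171), and Cxcl5 in Ahr-/- BMMs lost its call without DMSO 3 h replicate 2 (adjusted p 0.011), or without DMSO 20 h replicate 1 (0.0106) or 3 (0.0126).

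No member was called between Ahr-/- and Ahr+/+ BMMs without hk S.E., at 3 h (1.21% of all genes called) or at 20 h (0.702%). At an unadjusted p below 0.05, 1 member passed at 3 h and 2 at 20 h. Cxcl16 came nearest, at 205 to 270.4 CPM in Ahr+/+ and 233, 344, 295 and 300.1 CPM in Ahr-/- BMMs at 3 h (log2 0.33 ± 0.08, adjusted p 0.0148), and it passed with DESeq2, or without Ahr+/+ replicate 3 (0.41, adjusted p 0.0026) or Ahr-/- replicate 1 (0.42, adjusted p 9.9e-04).

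At 3 h after DMSO and hk S.E. no member was called either, where 2.83% of all genes were, and 4 members passed an unadjusted p below 0.05. The 4 neutrophil-attracting members had higher means in Ahr-/- BMMs, with log2 values of 0.73 ± 0.33 for Cxcl1, 0.53 ± 0.21 for Cxcl2, 0.53 ± 0.31 for Cxcl3 and 0.99 ± 0.59 for Cxcl5, and adjusted p-values from edgeR between 0.145 and 0.369. The 3 interferon-induced members had lower means, with -0.89 ± 0.40 for Cxcl9, -0.23 ± 0.29 for Cxcl10 and -0.49 ± 0.40 for Cxcl11, and adjusted p-values between 0.197 and 0.755. Cxcl16 was at 676 to 693 CPM in Ahr+/+ and at 701 to 851 CPM in Ahr-/- BMMs, without overlap (0.18 ± 0.08, adjusted p 0.226, edgeR). DESeq2 and limma on the VST values also called 0 members.

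At 20 h after DMSO and hk S.E. the genotypes differed in 5 of 8 members, where 12.5% of all genes were called. Cxcl1 and Cxcl3 were higher in Ahr-/- BMMs (5.06% of all genes were called higher), and Cxcl10, Cxcl11 and Cxcl16 were lower (7.39% were called lower). The higher ones attract neutrophils, the lower ones are 2 of the 3 interferon-induced members and the transmembrane one.

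Cxcl3 was at 59.0, 48.1, 92.0 and 57.8 CPM in Ahr+/+ and at 314, 328, 138 and 232 CPM in Ahr-/- BMMs, a log2 difference of 1.98 ± 0.32 (SE; edgeR, adjusted p 4.81e-06). All 4 Ahr-/- libraries lay above all 4 Ahr+/+ ones. Cxcl1 was at 49.7, 37.7, 51.7 and 35.9 CPM against 145, 129, 58.9 and 67.5 CPM, also without overlap (1.19 ± 0.33, adjusted p 0.00669). The call of Cxcl1 was lost when any of 5 libraries was left out, namely Ahr+/+ replicate 1 (adjusted p 0.0134), 2 (0.0264) or 4 (0.0282), or Ahr-/- replicate 1 (0.0494) or 2 (0.033), with log2 differences between 0.96 and 1.26. This call was also lost under 3 of 7 alternatives to the plain fit, among them the threshold of 0.05, at which it could not be lost. Cxcl2 was at 538, 496, 483 and 569.8 CPM against 1256, 843, 566 and 686 CPM, where the lowest Ahr-/- library lay within the Ahr+/+ range (0.68 ± 0.21, adjusted p 0.0168, not called; 0.83, adjusted p 0.0047, without Ahr-/- replicate 3). Cxcl5 stayed near the floor, with 4 counts over the 4 Ahr+/+ libraries and 30 over the Ahr-/- ones (adjusted p 0.0254, not called).

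The interferon-induced members were lower. Cxcl10 was at 729.6, 607, 451 and 755 CPM in Ahr+/+ and at 165, 95.8, 367 and 294 CPM in Ahr-/- BMMs (-1.46 ± 0.30, adjusted p 2.05e-04). Cxcl11 showed the largest difference of the members, with 47.8, 46.1, 16.5 and 37.3 CPM against 3.23, 1.05, 9.42 and 5.41 CPM (-2.94 ± 0.44, adjusted p 1.91e-06), and in neither gene did the genotypes overlap. Cxcl9 was at 49.9, 50.6, 41.2 and 45.6 CPM against 12.2, 9.86, 43.6 and 30.6 CPM, with 1 Ahr-/- library inside the Ahr+/+ range (-0.96 ± 0.41, adjusted p 0.0869, not called). Cxcl16 was at 719, 677.5, 661 and 767 CPM against 514, 549, 530.4 and 565 CPM, a small difference with little spread (-0.39 ± 0.08, adjusted p 3.82e-04).

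The library identifiers run in series, and these series divide with genotype at 20 h: all 16 Ahr-/- libraries at 20 h belong to 1 series, while the 12 activated Ahr+/+ libraries at 20 h belong to another. Genotype and identifier series therefore cannot be told apart directly in the 20 h comparison. With the series as a covariate, whose term for the Ahr-/- 20 h series then rests on 4 unactivated libraries outside those groups, 0 of the 5 calls remained: the log2 difference was 2.90 for Cxcl3 (adjusted p 0.0248), 1.11 for Cxcl1 (0.339), -1.695 for Cxcl10 (0.0108), -0.79 for Cxcl11 (0.941) and -0.21 for Cxcl16 (0.264). Cxcl3 and Cxcl11 had few counts in unactivated libraries, so their values with this covariate are poorly determined. Fitted on the 8 libraries compared alone, Cxcl3 (2.00, adjusted p 0.0031) and Cxcl11 (-2.91, adjusted p 0.0084) passed.

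The same contrast in the libraries that had received a ligand was added after the data had been seen. After BaP at 20 h, 8 of 8 members were called (23.3% of all genes; 11.5% higher and 11.8% lower), the 4 neutrophil-attracting ones higher in Ahr-/- BMMs and Cxcl9, Cxcl10, Cxcl11 and Cxcl16 lower. Cxcl11 was at 52.7, 80.2, 30.9 and 71.7 CPM in Ahr+/+ and 1.63, 1.48, 5.92 and 6.21 CPM in Ahr-/- BMMs (-3.92 ± 0.46, adjusted p 1.59e-09, edgeR), and Cxcl3 at 133, 44.2, 131 and 51.7 CPM against 452, 328, 240.2 and 233 CPM (1.80 ± 0.32). After I3C at 20 h, 4 of 8 were called (15.6% of all genes; 7.47% higher and 8.17% lower): Cxcl3 was higher (1.38 ± 0.31), and Cxcl10 (-1.49 ± 0.30), Cxcl11 (-3.13 ± 0.45) and Cxcl16 (-0.37 ± 0.08) were lower. At 3 h no member was called after BaP (4.88% of all genes) or after I3C (2.85%), with 5 and 4 members at an unadjusted p below 0.05. After BaP at 20 h the calls of Cxcl1, Cxcl2, Cxcl5 and Cxcl9 were lost without single libraries, so that 4 remained without Ahr+/+ replicate 2 or Ahr-/- replicate 1, 5 without Ahr+/+ replicate 4 and 6 without Ahr-/- replicate 2. With the identifier series as a covariate only Cxcl10 was called, after BaP (-1.95) and after I3C (-1.725). After I3C, Cxcl2 was called without Ahr-/- replicate 3 (0.75, adjusted p 0.0081).

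**Figure D3:**
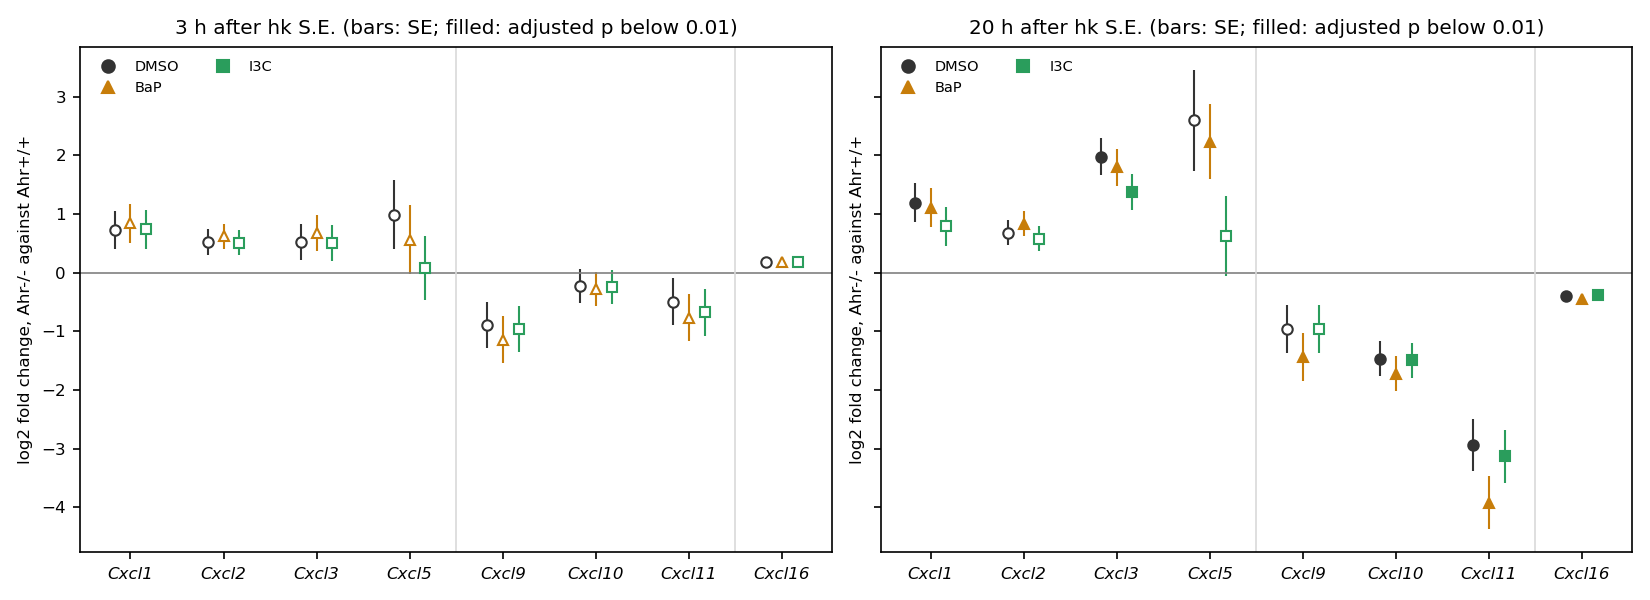
Log2 fold change of each member between activated Ahr-/- and Ahr+/+ BMMs, by DMSO, BaP or I3C, at 3 h (left) and 20 h (right); bars are SE, filled symbols passed an adjusted p below 0.01. At 20 h the neutrophil-attracting members lie above 0 and the interferon-induced members and Cxcl16 below it, from 2.60 for Cxcl5 to -3.92 for Cxcl11.

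Per library, the classes were compared by the mean log2 CPM per kb of Cxcl1, Cxcl2, Cxcl3 and Cxcl5 minus that of Cxcl9, Cxcl10 and Cxcl11, as a description without a test. Without activation at 3 h this difference was 0.92 for Ahr+/+ and 1.07 for Ahr-/- BMMs, on counts near the floor. With DMSO and hk S.E. at 3 h it was -2.50, -3.55, -1.64 and -2.95 in the Ahr+/+ libraries and -1.23, -0.60, -1.78 and -1.84 in the Ahr-/- ones, and the genotypes overlapped. At 20 h it was -2.34, -2.45, -1.13 and -2.12 in the Ahr+/+ libraries and 2.12, 2.82, -0.36 and 0.65 in the Ahr-/- ones. The genotypes did not overlap there, and the mean difference between them was 3.32 after DMSO, 3.99 after BaP and 2.85 after I3C. Which class led depended on Cxcl5, which is near the floor. Without it the 3 h mean after DMSO was -0.22 for Ahr+/+ and 0.98 for Ahr-/- cells, and the 20 h mean 0.47 and 3.71, so that the sign turned in Ahr-/- BMMs at 3 h and in Ahr+/+ BMMs at 20 h, while the difference between the genotypes at 20 h was 3.23. Both classes contributed: from Ahr+/+ to Ahr-/- at 20 h the mean of the neutrophil-attracting class went from 3.07 to 4.37, and that of the interferon-induced class from 5.08 to 3.07. After I3C the genotypes overlapped when a prior count of 0.5 was used. The series of library identifiers divide with genotype at 20 h here too. No class difference was computed with the series as a covariate, so what each class contributes apart from the series was not tested.

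**Figure D4:**
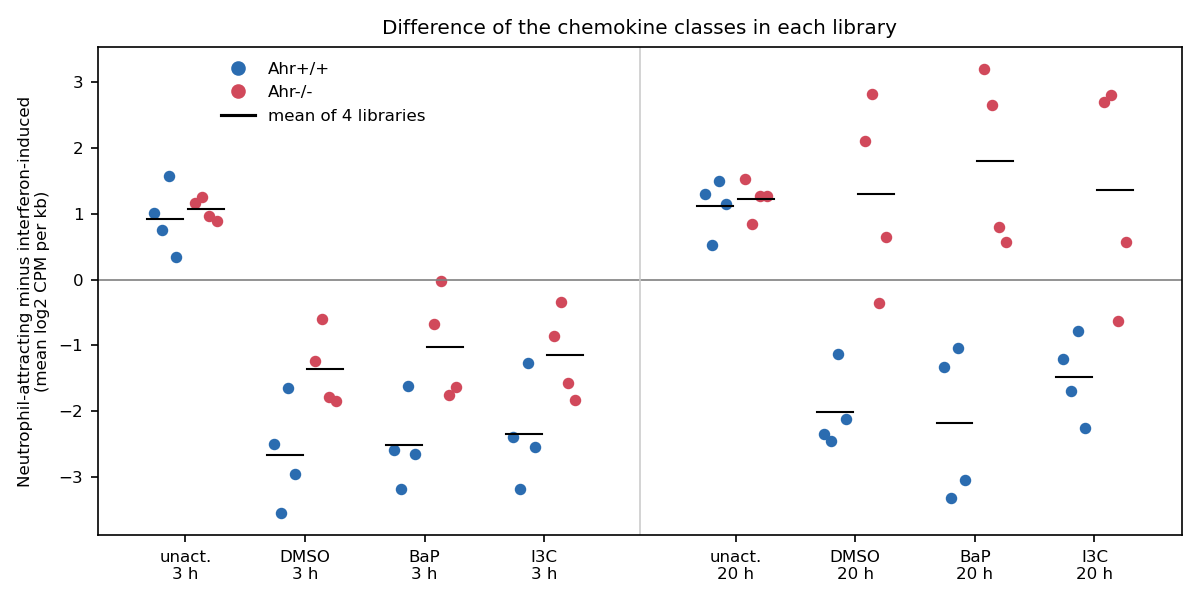
Mean log2 CPM per kb of the neutrophil-attracting members minus that of the interferon-induced members in each library, by treatment and time (unact., DMSO without hk S.E.); points are libraries, lines are means of 4. With hk S.E. at 20 h the Ahr+/+ libraries lie between -3.32 and -0.78 and the Ahr-/- ones between -0.63 and 3.20. These libraries differ between the genotypes in identifier series too.

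The same contrast can be read from a single pair of genes. Per kb, there were 0.0977 to 0.199 Cxcl2 for each Cxcl10 in the Ahr+/+ libraries at 3 h after DMSO and 0.201 to 0.263 in the Ahr-/- ones. At 20 h the ratio was 0.803 to 1.17 in Ahr+/+ and 1.68 to 9.58 in Ahr-/- BMMs. Libraries with the same number lay in like places after different treatments. In Ahr-/- BMMs at 20 h, libraries 1 and 2 had ratios of 8.31 and 9.58 after DMSO, 9.04 and 7.40 after BaP, and 8.84 and 9.84 after I3C, against 1.68 and 2.54, 2.64 and 2.17, and 1.73 and 2.63 in libraries 3 and 4. In Ahr+/+ BMMs library 3 had the highest class difference in each of the 6 activated groups. The sources do not say whether a number marks a mouse. If it does, the 3 treatments of a genotype share their mice and are not separate evidence of the difference between genotypes.

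Whether the genotypes differed in their response was tested as such. The response to hk S.E. at 20 h differed in 1 of 8 members (4.41% of all genes), namely Cxcl16, which rose by 1.39 ± 0.08 in Ahr+/+ and by 0.80 ± 0.08 in Ahr-/- BMMs (difference -0.59 ± 0.12, adjusted p 4.14e-04). For Cxcl10 the responses were 8.26 and 6.51, and their difference (-1.74 ± 0.47, adjusted p 0.0103) fell just short. It passed with DESeq2 (-1.785, adjusted p 0.00149), with RLE factors (-1.78), with a replicate block (-1.80), with the identifier series as a covariate (-2.01) and with limma on the VST values (-1.80). The Cxcl10 difference did not pass with no filter on low counts or with the compared groups alone (adjusted p up to 0.0661, edgeR). Of 16 fits that each left out 1 library, it passed in 5, and the highest adjusted p was 0.0426. These 5 left out Ahr+/+ unactivated replicate 2 (-1.96), Ahr+/+ DMSO replicate 3 (-1.88), Ahr-/- unactivated replicate 1 (-1.93) or Ahr-/- DMSO replicate 3 (-2.06) or 4 (-1.88). For Cxcl3 (1.31 ± 1.07) and Cxcl11 (-2.545 ± 5.88) the unactivated groups held few counts, so that these errors are not reliable. Limma on the VST values called both (1.77 and -2.51), for 4 members in all. At 3 h no member differed (0.0138% of all genes), and 0 passed an unadjusted p below 0.05.

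A further test, added after the data had been seen, asked whether the difference between genotypes after DMSO and hk S.E. changed from 3 h to 20 h. It was called for 2 of 8 members (6.09% of all genes): Cxcl11 (-2.45 ± 0.59, adjusted p 0.0032) and Cxcl16 (-0.56 ± 0.12, adjusted p 6.7e-04). Cxcl3 (1.45 ± 0.43, adjusted p 0.0187) and Cxcl10 (-1.24 ± 0.41, adjusted p 0.0363) did not pass. With the replicate number as a replicate block both did, Cxcl3 with 1.38 (adjusted p 3.4e-05) and Cxcl10 with -1.37 (4.1e-04), which made 4 members. The call of Cxcl11 was lost without Ahr+/+ DMSO 3 h replicate 3 (-2.30) or 4 (-2.35), or Ahr-/- DMSO 20 h replicate 1 (-2.30) or 2 (-2.14), and Cxcl3 passed without Ahr+/+ DMSO 20 h replicate 3 (1.675) or Ahr-/- DMSO 20 h replicate 3 (1.65), as did Cxcl10 without the latter (-1.56). Over the whole list 2 were called in the plain fit, 1 to 4 without single libraries and 0 with the identifier series as a covariate.

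No change of a chemokine with a ligand was detected at an adjusted p below 0.01. Of the 8 members, 0 were called in each of 8 contrasts between a ligand and DMSO. The share of all genes called was 0.0482% for BaP at 3 h and 0.234% at 20 h in Ahr+/+ BMMs, and 0.0275% and 0.0138% in Ahr-/- BMMs. For I3C it was 0.131% and 0.509% in Ahr+/+, and 0.0206% and 0.206% in Ahr-/- BMMs. DESeq2 and limma on the VST values called 0 members as well, and an unadjusted p below 0.05 was met by 2 members for I3C in Ahr+/+ BMMs at 20 h, by 1 for BaP in Ahr-/- BMMs at 20 h and by 0 elsewhere. With the replicate number as a block 0 members were called too. Calls over all genes for BaP in Ahr+/+ BMMs at 20 h then went from 34 to 271. Over all alternatives (edgeR, DESeq2 or limma) the lowest adjusted p-values were 0.0233 for Cxcl11 with BaP and 0.0334 for Cxcl3 with I3C. Both were in Ahr+/+ BMMs at 20 h.

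**Figure D5:**
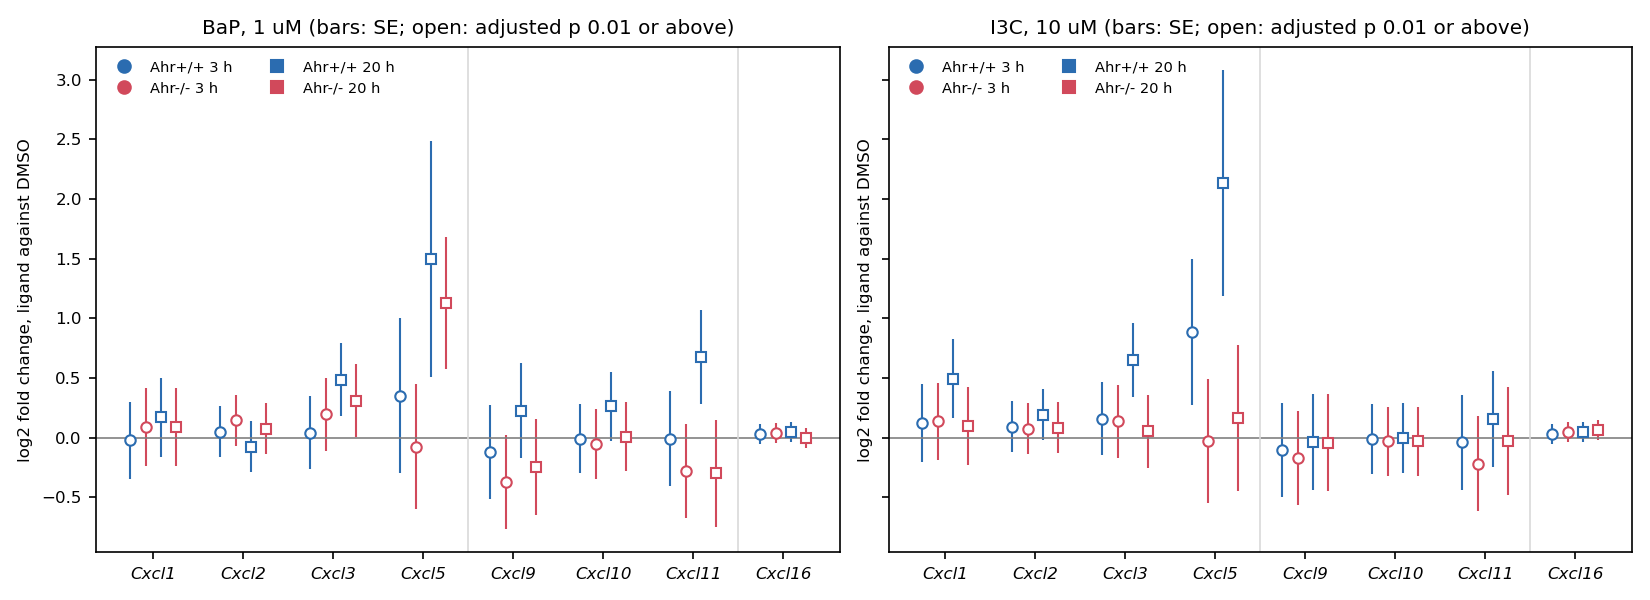
Log2 fold change of each member with BaP (left, 1 µM) and I3C (right, 10 µM) against DMSO, all with hk S.E., by genotype and time; bars are SE and all symbols are open because none passed an adjusted p below 0.01. Apart from Cxcl5, which has few counts, values lie between -0.37 and 0.68.

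For Cxcl10 the 8 log2 values lay between -0.05 and 0.26, with 95% intervals from -0.64 to 0.84, and for Cxcl2 between -0.08 and 0.19, with intervals from -0.50 to 0.62. Cxcl16 gave the narrowest limits, with values between -0.01 and 0.06 and intervals from -0.17 to 0.23. Wider limits held for Cxcl9 (-1.17 to 1.02) and Cxcl11 (-1.205 to 1.47). The doses differ by 10-fold and the compounds were not compared by a test. At 20 h in Ahr+/+ BMMs, Cxcl3 was at 133, 44.2, 131 and 51.7 CPM after BaP and at 128, 79.8, 125 and 70.0 CPM after I3C, beside 59.0, 48.1, 92.0 and 57.8 CPM after DMSO. The log2 values against DMSO were 0.49 ± 0.31 for BaP and 0.65 ± 0.31 for I3C, with adjusted p-values of 0.63 and 0.803 in the plain edgeR fit. Cxcl11 was at 52.7, 80.2, 30.9 and 71.7 CPM after BaP and at 48.0, 44.3, 24.4 and 47.5 CPM after I3C (0.68 ± 0.40 and 0.16 ± 0.40).

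The effect of a ligand was also compared between the genotypes. No member was called for BaP at 3 h, where 0.0138% of all genes were, and none for BaP at 20 h or for I3C at either time, where 0% of genes were called by edgeR. In these 4 tests 0 members passed an unadjusted p below 0.05, and DESeq2 and limma called 0.

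Of 7 other CXC ligands listed, Pf4, Ppbp and Cxcl14 passed the filter, and Cxcl12, Cxcl13, Cxcl15 and Cxcl17 did not. None of the 3 was called higher with hk S.E., and at 20 h all 3 were lower in Ahr+/+ BMMs, with log2 changes of -2.48 for Pf4 (platelet factor 4), -3.21 for Ppbp, another CXCR2 ligand, and -3.27 for Cxcl14. Between the genotypes after DMSO and hk S.E. none of the 3 was called. The receptors of the members were low: Cxcr2 was at 0.162 CPM and Cxcr3 at 1.52 CPM in Ahr+/+ BMMs at 3 h after DMSO, and Cxcr1, Cxcr5 and Cxcr6 did not pass the filter. Cxcr3 was lower in Ahr-/- BMMs at 20 h (-1.55). Of the proteases that cut CXC ligands, Adam17 rose with hk S.E. (1.502 in Ahr+/+ at 3 h), Adam10 was not called (-0.29), and Mmp8 was lower in activated DMSO-treated Ahr-/- BMMs, at 3 h (-3.15) and at 20 h (-3.32).

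Genes of the NF-kB and interferon pathways were described as lists. Of 13 NF-kB subunits, inhibitors and target genes, all 13 were higher at 3 h in both genotypes, with medians of 3.32 and 3.35, where 24.2% and 25.5% of all genes were. Between the genotypes at 20 h after DMSO, 2 of the 13 were higher in Ahr-/- BMMs, Nfkb1 (0.42) and Il1b (1.41, a cytokine gene), and 1 was lower, Nfkb2 (-0.55), with a median of -0.11 beside 0.01 over all genes. Of all genes 5.06% were called higher and 7.39% lower in this comparison. Of 17 interferon pathway genes tested, 15 were higher and 1 lower with hk S.E. at 3 h in each genotype. Between the genotypes at 20 h none was higher and 4 were lower in Ahr-/- BMMs after DMSO, with a median of -0.17: those with the largest changes were Ifnb1, which encodes interferon beta (-2.51), and the transcription factor genes Stat2 (-0.83) and Irf1 (-0.58). After BaP 8 of the 17 were lower (11.8% of all genes) and after I3C 6 (8.17%), again with none higher. With the identifier series as a covariate, calls over all genes after DMSO at 20 h went from 1811 to 493, and the lists were not counted there. Of 6 genes that set mRNA stability, 1 differed at 20 h after DMSO: Zfp36, whose product tristetraprolin promotes decay of chemokine and cytokine mRNAs, was lower in Ahr-/- BMMs (-0.92). Markers of other cells moved with the same comparison: Kdr (-2.31), Flt3 (-2.92), Zbtb46 (-2.56) and the macrophage markers Cd68 (-0.69) and Fcgr1 (-1.25) were lower and the B cell marker Cd79b (0.94) higher in Ahr-/- BMMs. The other 6 macrophage markers were not called, and the list summed to 20145 to 32147 CPM in Ahr-/- and 18829 to 22840 CPM in Ahr+/+ BMMs, with Lyz2 the largest part. The summed level was 3.07 to 17.8 CPM for the endothelial genes in Ahr-/- and 31.3 to 59.4 CPM in Ahr+/+ BMMs, and 0.075 to 0.442 against 0.859 to 1.83 CPM for the dendritic cell genes. Their part in the chemokine results was not tested.

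Over the 16 group means of log2 CPM, Pearson correlations between members ran from 0.757 to 0.989, with unactivated and activated groups at the ends. Over the 12 activated groups the correlation was 0.993 for Cxcl1 and Cxcl2, 0.964 for Cxcl9 and Cxcl10 and 0.905 for Cxcl9 and Cxcl11. Between the classes it was low for Cxcl3, with 0.397 for Cxcl10, 0.23 for Cxcl9 and -0.107 for Cxcl11. Cxcl11 was also low with Cxcl5 (0.207), Cxcl2 (0.369) and Cxcl1 (0.461), and Cxcl5 had 0.49 with Cxcl9. Higher values were 0.839 for Cxcl1 and Cxcl10, 0.776 for Cxcl2 and Cxcl10 and 0.703 for Cxcl1 and Cxcl9. Between them lay Cxcl5 and Cxcl10 (0.641) and Cxcl2 and Cxcl9 (0.617). The pair Cxcl1 and Cxcl3, of the same class, had 0.821. Cxcl16 went with Cxcl11 (0.882) and Cxcl10 (0.749) rather than with Cxcl3 (-0.071). These values describe 12 points, of which the 3 treatments of a genotype and time lie close together.

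Among all genes tested, the 3 most like each member over the 16 group means of log2 CPM were Pde4b, Lcp2 and Nfkbia for Cxcl1 (r from 0.9954 to 0.9964), Bcl2a1d, Socs3 and Shisa3 for Cxcl2 (0.9961 to 0.9972) and Il1a, D16Ertd472e and Dnajb6 for Cxcl3 (0.9948 each). For Cxcl5 they were Ppp2cb, Prkcd and Ikbkb (0.9685 to 0.972). They were AW112010, Gbp3 and Tank for Cxcl9 (0.996 to 0.9971), Rabgef1, Hdc and Slfn8 for Cxcl10 (0.9979 to 0.9982), Cln3, Gadd45b and Ifit1bl1 for Cxcl11 (0.993 to 0.9935) and Psmb9, 9330175E14Rik and Pirb for Cxcl16 (0.9896 to 0.9909). Over the 12 activated groups alone other genes came first, among them Usp18 and Il15ra for Cxcl10 (0.9996 and 0.999) and Il1b, in the third place, for Cxcl3 (0.9805), and no gene was among the first 3 of a member in both rankings.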

How the data were processed

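Poly(A) RNA of 64 BMM libraries was sequenced with a stranded kit. Per the labels and the methods, the authors demultiplexed reads with bcl2fastq 2.19.0.316, aligned them to mm10 with HISAT2 2.1.0 and counted them on GENCODE genes with HTSeq 0.9.1, and deposited raw counts per gene. The deposited log2 values are counts that the authors passed through the variance-stabilizing transformation (VST) of DESeq2, and were used for an alternative only.

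From the counts, 14537 genes that passed filterByExpr (minimum count 10) were fitted in R 4.3.3 with edgeR 4.0.16 (TMM factors, 16 group means, quasi-likelihood F test, Benjamini-Hochberg adjustment over all genes tested, threshold 0.01, 48 residual degrees of freedom). The script was tested on simulated counts. Levels are TMM-scaled CPM, with a prior count of 2 for log2 CPM, and gene lengths are summed exons of GENCODE M21, while the authors used M22. A group with 0 counts was set to a floor of 3 counts over the group, and intervals and floors cover counting error only. Depth ran from 12152496 to 233047331 counts with a median of 24499165. Alternatives were DESeq2 1.42.0, limma 3.58.1 on the VST values, RLE factors, no filter, the compared groups alone, the replicate number as a block, the library identifier series as a covariate, a threshold of 0.05 and leaving out each library. No table column was left without a sample.

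All 8 members were tested in every comparison, though not each is given with its value. For each list, up to 3 called genes with the largest change in each direction were named, and for each member the 3 other genes with the highest Pearson correlation of group means. Values of Adam10, Cxcr2 and genes of the marker lists were added after their values were seen. Members and lists were chosen with earlier results of these data known. Each genotype had 4 mice, but the sources used here do not tie a library to a mouse, so p-values measure the spread between these libraries.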

Additional observations from a re-analysis of the deposited data

Results flagged for a closer look

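In 9 of 117 sets of 4 libraries, the highest or lowest library stood apart from the other 3 by more than Dixon's critical value at the 95% level, which chance does in about 1 of 20 sets. Cxcl3 was highest in Ahr+/+ replicate 3 at 3 h after DMSO (350.2 CPM), I3C (397 CPM) and BaP (368 CPM), and Cxcl5 in the I3C library among these (1.685 CPM). Cxcl2 was lowest in Ahr-/- DMSO 3 h replicate 1 (1628 CPM). In unactivated Ahr-/- BMMs at 20 h, replicate 2 was highest for Cxcl2 (10.8 CPM) and for Cxcl9 (0.680 CPM). After I3C at 20 h in Ahr+/+ BMMs, Cxcl9 was highest in replicate 1 (55.4 CPM) and Cxcl11 lowest in replicate 3 (24.4 CPM).

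A difference between genotypes in the response to hk S.E., or in its change from 3 h to 20 h, was called for 2 members. The response of Cxcl16 to hk S.E. at 20 h was lower in Ahr-/- BMMs by -0.59 on the log2 scale, and its genotype difference changed by -0.56 from 3 h to 20 h, while that of Cxcl11 changed by -2.45. Genotype at 20 h and the identifier series of the libraries cannot be told apart directly.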

How the results depend on the processing

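No member changed direction against its call, and of 4074 member values under alternatives 3984 kept their side of the threshold, 60 lost and 30 gained a call. These values include the threshold of 0.05, at which no call could be lost. With the identifier series as a covariate, members called went from 7 to 4 for time in Ahr-/- BMMs, from 5 to 0, 8 to 1 and 4 to 1 for genotype at 20 h after DMSO, BaP and I3C, from 2 to 0 for its change with time, and from 1 to 2 for the response to hk S.E. at 20 h. Cxcl11 also lost its call for time in Ahr+/+ BMMs with this covariate. With the compared groups alone, 2, 4 and 1 members were called for genotype at 20 h and 1 for its change with time. At a threshold of 0.05, 1 was called for genotype in unactivated BMMs at 3 h (1 also with DESeq2), 1 after BaP at 3 h, 2 for the response at 20 h and 4 for the change with time. RLE factors and DESeq2 called 2 for the response at 20 h and limma 4. Without single libraries, members called ran from 6 to 7 for time in each genotype, 0 to 1 for genotype in unactivated BMMs at 3 h, 4 to 6, 4 to 8 and 4 to 5 for genotype at 20 h after DMSO, BaP and I3C, 1 to 2 for the response at 20 h and 1 to 4 for the change with time. The causes were not tested.

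With the replicate number as a replicate block, 2 members were called for the response at 20 h and 4 for the change of genotype with time, and no other count of members changed by over 1.5 times. Of same-number pairs, 104 of 112 in Ahr-/- and 54 of 112 in Ahr+/+ BMMs deviated together with a correlation over 0.1, and 25 and 31 of 32 libraries correlated best with their own number. No paired analysis was possible for genotype within a time because the genotypes share no mice.

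Over all genes, calls for genotype after DMSO went from 411 to 49 (compared groups), 208 (identifier series) and 903 (threshold 0.05) at 3 h, and from 1811 to 559, 493 and 2931 at 20 h. At 20 h after BaP they went from 3385 to 2094 and 1967, after I3C from 2274 to 927 and 1092, and for the change with time from 885 to 422 and 178, or 1898 with the block. In unactivated BMMs they went from 176 to 31 and 104 at 3 h, and from 102 to 5 and 36 at 20 h. For the response at 20 h, 641 became 266 (compared groups) and 1505 (block). For the ligands, calls stayed between 0 and 271 under every alternative. Depth limits Cxcl5, with at most 70 counts over a 20 h group.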
